A study of Mus musculus with 18 samples.

Results

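The tissue described here is that of 6 libraries of one treatment group, Coll IV, out of 18 libraries in the series. Replicates 4 to 6 of this group were set against its replicates 1 to 3, over all 19513 genes that passed a filter on low counts. The split was chosen from measured values: genes of brain regions had been seen to part the libraries of every group by their number, and the labels name no batch, animal, side or dissection behind the numbers. Differences within the Coll IV group therefore describe these libraries. A gene is called higher or lower where a fitted model passes a threshold, a way of sorting genes by size and spread that supports nothing. Tests were run on whether the difference between the sets was of another size in Coll IV than in saline, or than in Coll IV with remodelin. These tests contain the Coll IV difference, and region genes had been seen to differ in every group, so for region genes they are not independent of the choice either. The 3 marker genes get no test.

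All samples were labelled as thalamus of wild-type (WT) mice, and the series concerns thalamic haemorrhage. The control group had received saline, the model group Coll IV and the intervene group Coll IV and remodelin, with 6 libraries in each. Remodelin inhibits the acetyltransferase NAT10. The labels do not expand Coll IV (type IV collagenase is a common means of causing brain haemorrhage) and give no strain, sex, age, dose or time after treatment. They do not say that the libraries of a group came from separate animals, so a p-value here measures only the spread between these samples.

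The thalamus relays sensory and motor signals to the cortex through excitatory neurons that use the vesicular glutamate transporter VGLUT2 and depend on the transcription factor TCF7L2. The striatum lies beside and in front of it. Most striatal neurons are inhibitory projection neurons that receive dopamine and fall into a direct class, with Drd1 and the peptides dynorphin and substance P, and an indirect class, with Drd2, the adenosine receptor gene Adora2a and enkephalin. The choroid plexus, which makes cerebrospinal fluid and secretes transthyretin from the gene Ttr, hangs in the ventricles next to both. In bulk RNA, fewer cells of a type and less RNA per cell cannot be told apart.

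The Coll IV libraries held 31012290 to 33773652 counts in replicates 1 to 3 and 29429827 to 36361681 in replicates 4 to 6, with 24456 to 24740 and 24473 to 25142 genes detected. The 13 protein-coding mitochondrial genes took 7.99 to 12.9% and 7.73 to 10.02% of counts, and haemoglobin genes 0.0206 to 0.0485% and 0.0145 to 0.0177%. Across genes, log2 CPM (counts scaled to one TMM-adjusted library size) correlated at 0.976 to 0.981 within replicates 1 to 3, at 0.981 to 0.985 within 4 to 6 and at 0.945 to 0.972 between the sets. A pair of libraries of one set had 225 to 391 genes more than 4-fold apart, and a pair from different sets 554 to 1210. Tcf7l2, which marks thalamic neurons, was low in replicates 4 to 6, at 4.79 to 10.5 CPM. All libraries carried the thalamus label, and the cause of the low level was not tested. In the saline group, replicate 1 stood apart from replicates 2 and 3 by its high striatal transcripts, and it was sequenced deepest in the series, at 118461420 counts.

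Within the Coll IV group, 1622 genes were called higher and 1785 lower in replicates 4 to 6, with edgeR's adjusted p under 0.05 as the threshold and no test read from it. These are 8.31% and 9.15% of the genes tested. All 3 libraries of one set lay above all 3 of the other for 3531 genes higher in replicates 4 to 6 (18.1%) and for 3711 genes lower (19.0%). The median log2 difference over all genes was -0.01. Leaving out 1 library at a time moved the counts to 550 to 1906 higher and 659 to 1858 lower. The counts were smallest for higher genes without replicate 2 (550 and 659), and were also over 1.5 times smaller without replicate 3 for higher genes (953), without replicate 4 (806 and 754) and without replicate 6 (850 and 947). By median difference over 31 gene lists, with genes at 0 in a whole set held at the bound that 3 counts allow, striatal receptors and striatal signalling genes stood highest in replicates 4 to 6, and choroid plexus and habenula genes lowest. Without that bound, brainstem and cerebellum genes stood lowest (-4.30, against -2.44 with it).

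**Figure D1:**
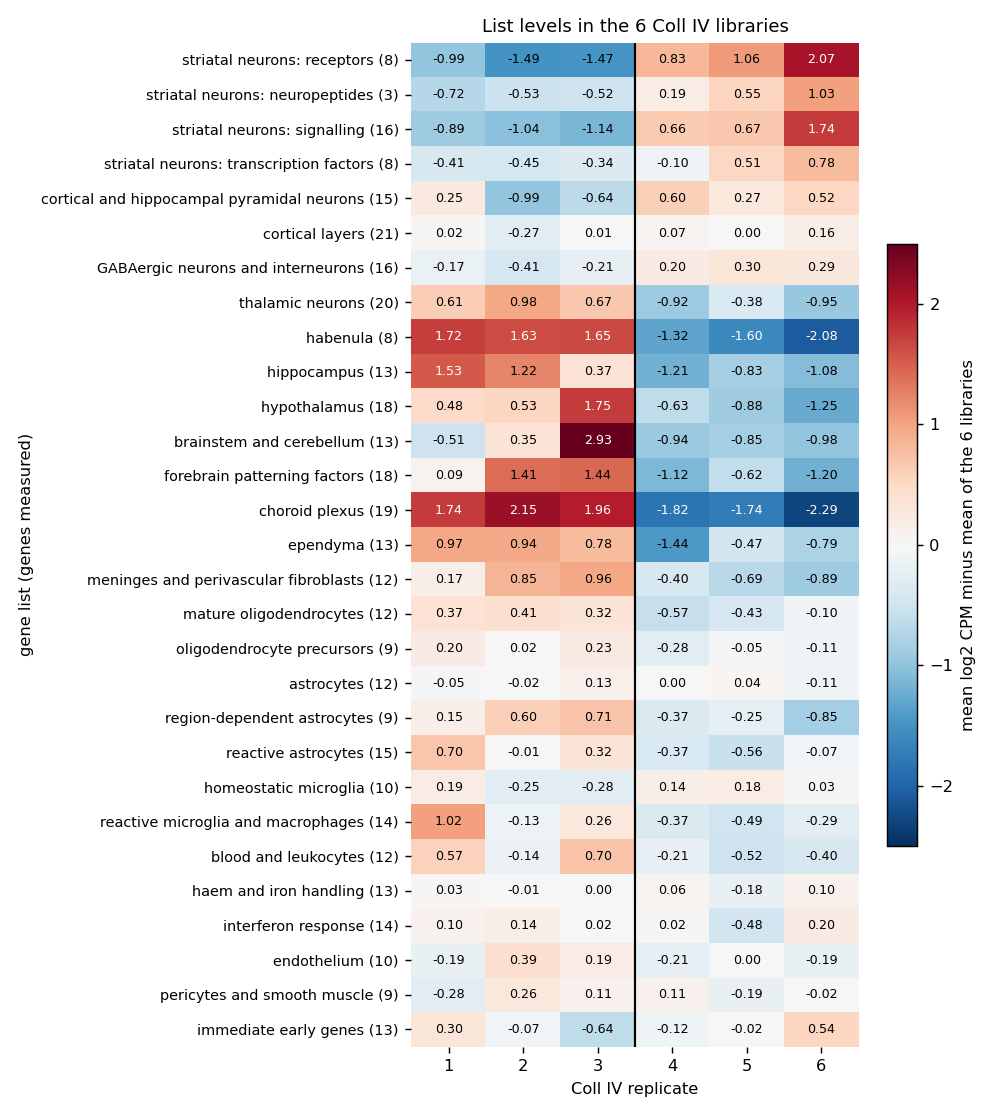
Mean log2 CPM of the gene lists in the 6 Coll IV libraries, minus the mean of the 6. Columns are replicates 1 to 6, rows are lists with the number of genes measured, red is above and blue below the mean. The lists of chemokines and cytokines and of mitochondrially encoded genes are not drawn. The 4 striatal rows are blue in replicates 1 to 3 and red in 4 to 6, apart from striatal transcription factors in replicate 4 (-0.10), while choroid plexus runs from 2.15 in replicate 2 to -2.29 in replicate 6.

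The rule for the split names 3 marker genes. Adora2a, the adenosine receptor gene of indirect-pathway striatal neurons, had 4.84, 1.86 and 1.30 CPM in replicates 1 to 3 and 48.3, 55.6 and 133 in replicates 4 to 6. All of replicates 4 to 6 were high and replicate 6 the highest, and the log2 difference was 4.88 ± 1.34 (SE). Tcf7l2, the thalamic transcription factor, had 53.6, 144 and 72.6 CPM in replicates 1 to 3 and 8.02, 10.5 and 4.79 in replicates 4 to 6, a log2 difference of -3.53 ± 0.36. The highest of replicates 4 to 6 stayed below the lowest of 1 to 3. Ttr, the transthyretin gene, had 3194, 5454 and 4293 CPM in replicates 1 to 3 and 92.7, 40.4 and 48.1 in replicates 4 to 6, a log2 difference of -6.16 ± 1.89. Replicates 4 to 6 thus still carried Ttr, with their lowest value at 40.4 CPM, while the saline libraries 4 to 6 had 0.257, 0.591 and 0.399 CPM.

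**Figure D2:**
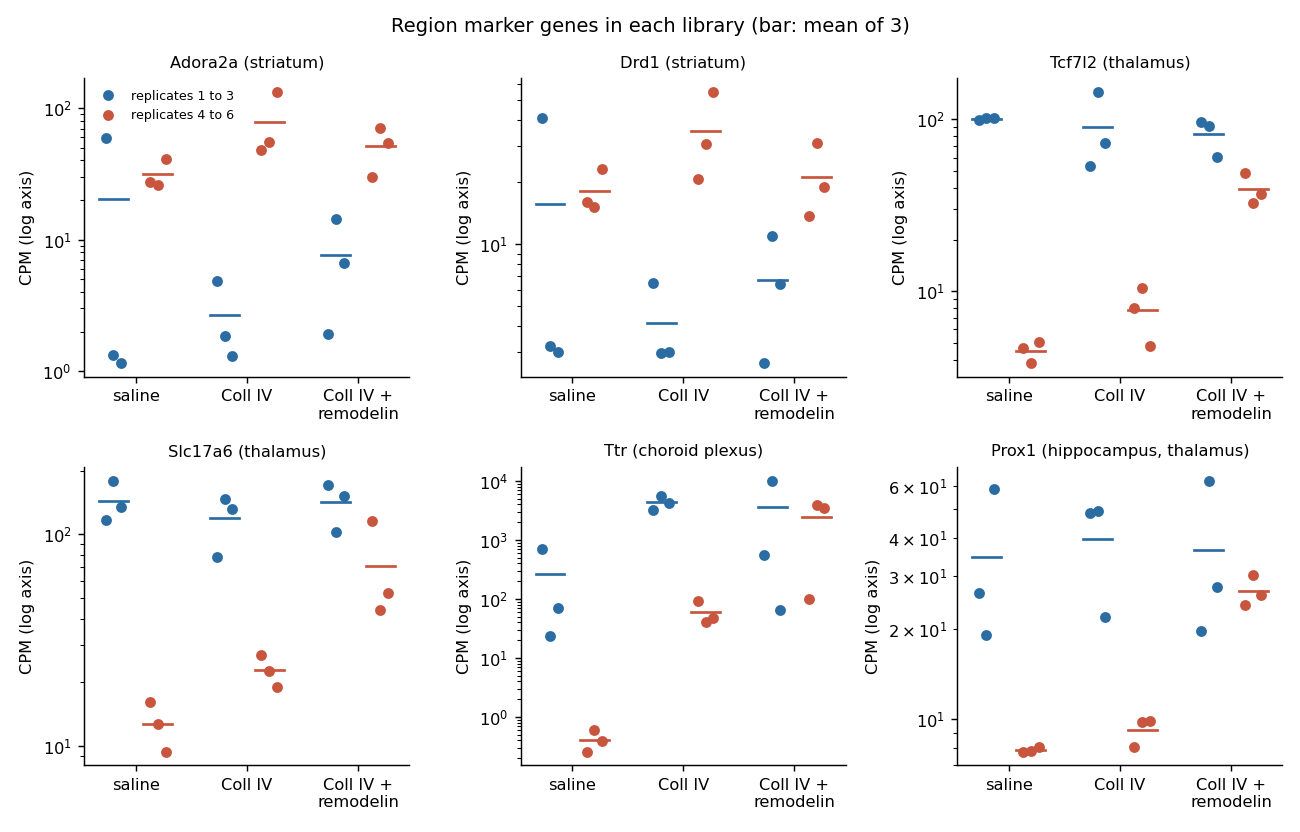
CPM on a log axis of 6 region marker genes in every library, by group and set; each point is a library, each bar the mean of 3. In Coll IV, Adora2a and Drd1 were higher and Tcf7l2, Slc17a6, Ttr and Prox1 lower in all of replicates 4 to 6; saline replicate 1 is the blue point with 59.0 CPM of Adora2a.

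Striatal genes had a part in the choice of the split, so their values are given as a description. Of 35 genes in the 4 striatal lists, 21 were called higher and 0 lower in Coll IV replicates 4 to 6, against 8.31% and 9.15% of all genes, with a median log2 difference of 1.86. In 29 of the 35 all of replicates 4 to 6 lay above all of 1 to 3, as in 18.1% of all genes. The summed level of the 35 genes was 1196, 1147 and 1104 CPM in replicates 1 to 3 and 3152, 3371 and 6433 in replicates 4 to 6. Replicates 4 and 5 were alike and replicate 6 far above them. The count of higher members was 2 without replicate 2 or without replicate 6, 5 without replicate 3, 12 without replicate 1 or without replicate 4, and 14 without replicate 5. It was 5 with no filter on low counts and 14 with limma-voom.

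Receptors of striatal projection neurons made up the highest of these lists, with a median log2 difference of 2.67. Of 8 members 7 were higher and 0 lower (8.31% and 9.15% of all genes). Drd1, the dopamine receptor gene of the direct pathway, had 6.47, 2.95 and 2.99 CPM in replicates 1 to 3 and 20.8, 30.7 and 55.0 in replicates 4 to 6 (log2 difference 3.10 ± 0.92). Drd2, that of the indirect pathway, had 4.35, 8.32 and 11.8 CPM in replicates 1 to 3 and 20.9, 25.8 and 69.7 in replicates 4 to 6 (2.24 ± 0.61). Genes of both pathways were therefore higher. Gpr6, an orphan receptor gene of indirect-pathway neurons, had 2.15, 2.32 and 2.49 CPM in replicates 1 to 3 and 13.4, 18.9 and 40.3 in replicates 4 to 6 (3.38 ± 0.92). In each of these genes the sets did not overlap and replicate 6 was highest. Chrm4, a muscarinic receptor gene of the direct pathway, had 13.9, 5.83 and 9.16 CPM in replicates 1 to 3 and 28.7, 28.1 and 40.9 in replicates 4 to 6 (1.76 ± 0.48), and Gpr52, an orphan receptor gene, had a mean of 5.58 ± 1.46 against 20.3 ± 9.36 CPM (SD, n = 3 each). The opioid receptor gene Oprm1 was the exception, at 0.276, 0.464, 0.237, 0.391, 0.208 and 0.525 CPM in replicates 1 to 6, with overlapping sets.

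Of the striatal neuropeptide genes, 1 of 3 was called higher in replicates 4 to 6 by the same threshold (8.31% of all genes). This was Penk, which encodes enkephalin, with 97.9, 112 and 129.8 CPM in replicates 1 to 3 and 286, 385 and 835 in replicates 4 to 6 (2.15 ± 0.68). Pdyn, for dynorphin, had 28.3, 20.2 and 19.8 CPM in replicates 1 to 3 and 33.2, 47.6 and 42.1 in replicates 4 to 6 (0.85 ± 0.46). Tac1, for substance P, had 30.7, 55.3 and 50.5 CPM in replicates 1 to 3 and 59.2, 64.7 and 92.4 in replicates 4 to 6 (0.66 ± 0.32). The sets did not overlap in the 3 genes. Penk was also the striatal list member with the highest level per gene length in replicates 4 to 6, at a mean of 156 FPKM, followed by Ppp1r1b at 139.5 FPKM; in replicates 1 to 3 they had 35.7 and 20.6 FPKM.

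Signalling genes of striatal neurons were higher in 10 of 16 cases and lower in 0 (8.31% and 9.15% of all genes), with a median log2 difference of 2.05. Ppp1r1b, whose product DARPP-32 integrates dopamine signals, had 104, 68.6 and 85.7 CPM in replicates 1 to 3 and 499, 399 and 889.8 in replicates 4 to 6 (2.79 ± 0.84). Pde10a, a cyclic nucleotide phosphodiesterase of the striatum, had 34.0, 15.1 and 15.6 CPM in replicates 1 to 3 and 63.1, 83.2 and 235 in replicates 4 to 6 (2.56 ± 0.81). Rgs9, a regulator of G protein signalling, had 19.8, 21.3 and 25.5 CPM in replicates 1 to 3 and 75.8, 63.7 and 157 in replicates 4 to 6 (2.16 ± 0.60). Scn4b, a sodium channel beta subunit, had 34.3, 44.7 and 46.0 CPM in replicates 1 to 3 and 159, 179.9 and 363 in replicates 4 to 6 (2.49 ± 0.50). Adcy5, the main adenylyl cyclase of striatal neurons, had 78.1 ± 4.75 against 256 ± 98.2 CPM (SD, n = 3 each; log2 difference 1.71 ± 0.38), and Gng7, a G protein gamma subunit gene, 90.8 ± 27.3 against 368 ± 115 (2.02 ± 0.63). Ido1, a tryptophan-degrading enzyme gene of this list, had 0.675, 0.332 and 1.01 CPM in replicates 1 to 3 and 6.48, 5.75 and 17.6 in replicates 4 to 6. Gnal, the G protein alpha subunit that couples dopamine receptors to adenylyl cyclase here, and Strip2 and Rasgrp2 were not called, with log2 differences of 0.83 ± 0.30, 0.55 ± 0.40 and 0.60 ± 0.31.

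Transcription factors of striatal neurons differed among themselves. Rarb, a retinoic acid receptor gene, had 6.44, 4.38 and 5.04 CPM in replicates 1 to 3 and 15.3, 21.0 and 35.5 in replicates 4 to 6 (2.17 ± 0.59), the forkhead gene Foxp1 47.8, 24.4 and 30.0 CPM in replicates 1 to 3 and 73.0, 72.2 and 125 in replicates 4 to 6 (1.40 ± 0.38) and the homeobox gene Meis2 48.8, 45.3 and 55.4 CPM in replicates 1 to 3 and 105, 186 and 187 in replicates 4 to 6 (1.68 ± 0.54). These 3 of 8 members were called higher (8.31% of all genes). Bcl11b, Isl1 and Six3, which are also used by other neurons, had overlapping sets, with log2 differences of 0.65 ± 0.57, 0.16 ± 0.74 and -0.03 ± 0.35. Ebf1, needed by direct-pathway neurons in development, had 2.82, 8.22, 9.31, 3.19, 2.73 and 5.11 CPM in replicates 1 to 6 (-0.89 ± 0.39).

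**Figure D3:**
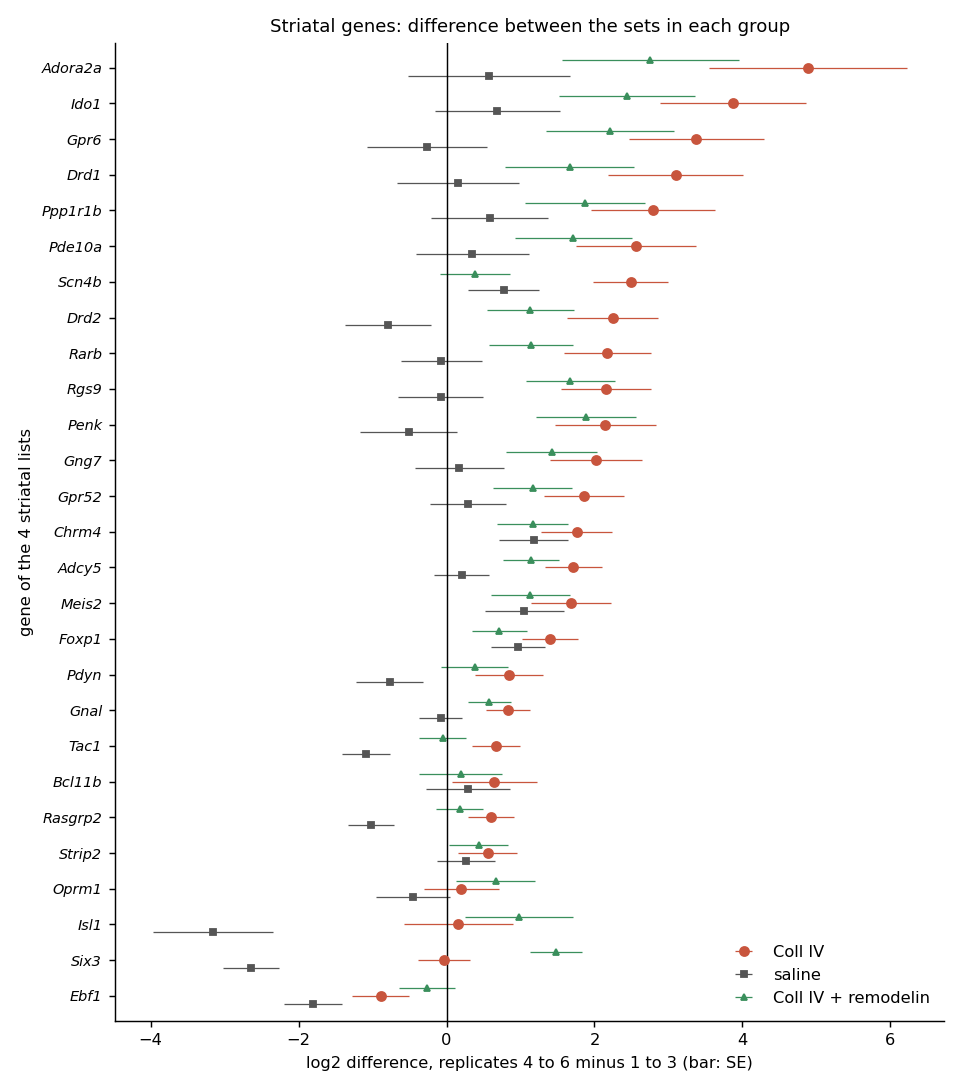
Log2 difference between replicates 4 to 6 and 1 to 3 for the striatal list genes named in the text, in each group, with standard errors as bars. Each saline value includes replicate 1, with 59.0 CPM of Adora2a. Coll IV values run from 4.88 for Adora2a to -0.89 for Ebf1.

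Thalamic neuron genes were lower in replicates 4 to 6 in 12 of 20 cases and higher in 0 (9.15% and 8.31% of all genes), with a median log2 difference of -1.25. The count stayed at 8 to 12 when any 1 Coll IV library was left out. The summed level was 843, 1323 and 1046 CPM in replicates 1 to 3 and 402, 590.3 and 379.9 in replicates 4 to 6. Slc17a6, which encodes VGLUT2, had 77.8, 147 and 132 CPM in replicates 1 to 3 and 26.9, 22.7 and 19.0 in replicates 4 to 6 (-2.38 ± 0.37). Ntng1, a netrin relative on thalamic axons, had 39.1, 52.0 and 37.7 CPM in replicates 1 to 3 and 10.003, 12.7 and 11.1 in replicates 4 to 6 (-1.93 ± 0.14), with the 3 libraries of each set close together. Among transcription factors of the thalamus, Lef1, a relative of TCF7L2 in Wnt signalling, had 8.65, 19.5 and 11.0 CPM in replicates 1 to 3 and 3.35, 3.68 and 4.13 in replicates 4 to 6 (-1.81 ± 0.25), and the homeobox gene Gbx2 had 6.47, 6.70 and 6.97 CPM in replicates 1 to 3 and 1.06, 1.72 and 0.560 in replicates 4 to 6 (-2.58 ± 0.72). Shox2, another homeobox gene, had 11.7, 28.8 and 23.7 CPM in replicates 1 to 3 and 0.224, 0.771 and 0.210 in replicates 4 to 6 (-5.71 ± 0.49), a level in replicates 4 to 6 that rests on few counts. Calb2, for calretinin of the midline thalamus, had 195, 421 and 338 CPM in replicates 1 to 3 and 50.3, 134 and 43.1 in replicates 4 to 6 (-2.07 ± 0.45). Replicate 5 was the highest of its set for this gene.

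Other genes of the thalamic list differed less. Prkcd, a protein kinase C gene of sensory relay nuclei, had 31.8, 45.9 and 20.2 CPM in replicates 1 to 3 and 13.4, 41.3 and 15.05 in replicates 4 to 6 (-0.49 ± 0.55), so replicate 5 lay among replicates 1 to 3. Zic1, a transcription factor of thalamus and septum, followed the same order, at 82.7, 88.6, 77.7, 20.6, 83.7 and 27.3 CPM in replicates 1 to 6 (-0.92 ± 0.65). Replicate 5 thus differed from replicates 4 and 6 in both. Rora, Adarb1 and Ramp3, which are high in the thalamus but used elsewhere too, had log2 differences of 0.29 ± 0.17, -0.19 ± 0.11 and -0.21 ± 0.23 and overlapping sets. Within replicates 1 to 3, replicate 2 had the highest Tcf7l2, Shox2 and Calb2.

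The habenula sits on the thalamus at the midline, and its transcripts were low in replicates 4 to 6. Of its 8 genes 6 were lower and 0 higher, against 9.15% and 8.31% of all genes (median log2 difference -3.48); limma-voom called 3 lower. Pou4f1, a transcription factor of habenular neurons, had 11.8, 17.4 and 12.5 CPM in replicates 1 to 3 and 0.335, 0 and 0 in replicates 4 to 6, and Chrna3, a nicotinic receptor subunit gene, had 14.4, 19.4 and 13.4 CPM in replicates 1 to 3 and 0.838, 0.949 and 0.490 in replicates 4 to 6 (-4.35 ± 0.59). Gpr151, an orphan receptor gene of the same neurons, had 17.8, 12.03 and 9.78 CPM in replicates 1 to 3 and 1.29, 0.593 and 0.420 in replicates 4 to 6 (-4.08 ± 1.22). Tac2, for neurokinin B, had 51.0, 60.2 and 43.5 CPM in replicates 1 to 3 and 20.6, 11.0 and 11.1 in replicates 4 to 6 (-1.85 ± 0.48). The sets did not overlap in 7 of the 8 genes, with replicates 4 to 6 the lower set, as in 19.0% of all genes.

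Hippocampal genes were lower in 7 of 13 cases and higher in 0, against 9.15% and 8.31% of all genes (median log2 difference -2.06), a count of 2 to 7 with 1 library left out, namely 2 without replicate 4 or 6, 3 without replicate 2, 4 without replicate 5, and 4 with limma-voom or with no filter on low counts. Prox1, a factor of dentate granule cells that the thalamus also expresses, had 48.5, 49.5 and 21.8 CPM in replicates 1 to 3 and 8.05, 9.75 and 9.83 in replicates 4 to 6 (-2.12 ± 0.46). Dsp, the desmoplakin gene of dentate granule cells, had 20.2, 27.8 and 6.11 CPM in replicates 1 to 3 and 0.112, 0.178 and 0.06999 in replicates 4 to 6 (-7.17 ± 1.68). C1ql2, a synaptic organiser of their mossy fibres, had 53.3, 70.0 and 29.1 CPM in replicates 1 to 3 and 2.79, 2.67 and 2.62 in replicates 4 to 6 (-4.23 ± 0.68). Replicate 3 was the lowest of replicates 1 to 3 in all of these. Fibcd1, of field CA1 neurons, had 48.7, 38.9 and 22.9 CPM in replicates 1 to 3 and 7.38, 12.04 and 7.03 in replicates 4 to 6 (-2.06 ± 0.50), again with replicate 3 lowest of its set.

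Hypothalamic genes differed among themselves. Of 18 genes 2 were called lower and 0 higher, a share near the 9.15% of all genes (median log2 difference -1.28). In 11 all of replicates 4 to 6 lay below all of 1 to 3, as in 19.0% of all genes. Pmch, for melanin-concentrating hormone of the lateral hypothalamus, had 28.1, 16.6 and 76.0 CPM in replicates 1 to 3 and 0.0559, 0.0593 and 0.0350 in replicates 4 to 6, and Hcrt, for orexin of the same area, had 45.1, 5.70 and 90.1 CPM in replicates 1 to 3 and 0.196, 0.237 and 0.175 in replicates 4 to 6. Both were thus near 0 in replicates 4 to 6 and uneven among replicates 1 to 3. Oxt, for oxytocin, had 135, 162 and 170.4 CPM in replicates 1 to 3 and 54.7, 50.7 and 23.0 in replicates 4 to 6 (-1.86 ± 1.42), Gal, for galanin, 12.8, 16.8 and 20.01 CPM in replicates 1 to 3 and 11.8, 8.81 and 8.54 in replicates 4 to 6 (-0.77 ± 0.69) and Trh, for thyrotropin-releasing hormone, 32.7, 37.3 and 64.3 CPM in replicates 1 to 3 and 29.3, 22.7 and 14.9 in replicates 4 to 6 (-1.003 ± 0.97). In saline replicates 4 to 6, Oxt had 0.0321, 0.139 and 0.332 CPM, Gal 0.0642, 0.348 and 0.0664 and Trh 2.85, 3.63 and 1.76, below every Coll IV library for the 3 genes. Hdc, for the histamine-making enzyme, had 7.54, 11.5 and 14.5 CPM in replicates 1 to 3 and 1.96, 3.38 and 3.499 in replicates 4 to 6 (-1.93 ± 0.46).

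Midbrain and hindbrain genes were uneven within replicates 1 to 3. Slc6a3, the dopamine transporter gene of the substantia nigra and ventral tegmental area, had 0.368, 0.398, 44.4, 0.168, 0.415 and 0.140 CPM in replicates 1 to 6, and Tph2, the serotonin-making enzyme gene of the raphe, had 1.72, 4.24, 51.0, 3.63, 1.13 and 2.31 CPM. Slc6a4, the serotonin transporter gene, had 0.368, 1.99, 27.5, 0.112, 0.0593 and 0.140 CPM. Replicate 3 alone was high in the 3 genes. The list's 13 measured genes of 15 had 3 lower and 0 higher members (9.15% and 8.31% of all genes), with a median log2 difference of -4.30, or -2.44 with the 2 genes that were at 0 in all of replicates 4 to 6 set to the bound that 3 counts over the set allow. Among patterning factors of diencephalon and midbrain, Gata3, a factor of inhibitory neurons of the midbrain, had 0.0613, 11.2 and 9.90 CPM in replicates 1 to 3 and 0, 0.0593 and 0 in replicates 4 to 6, Barhl1, a homeobox gene, had 0.552, 7.76 and 7.53 CPM in replicates 1 to 3 and 0, 0.0593 and 0 in replicates 4 to 6 and Tal1, a partner of Gata factors, had 0.797, 5.97 and 5.81 CPM in replicates 1 to 3 and 0.726, 0.356 and 0.420 in replicates 4 to 6. Replicate 1 was low in each, near replicates 4 to 6, and replicates 2 and 3 were high. Irx2, an Iroquois factor, had 6.72, 14.1 and 18.3 CPM in replicates 1 to 3 and 0.224, 0.178 and 0 in replicates 4 to 6, and Lhx9, a factor of thalamus and habenula, had 18.6, 36.9 and 24.2 CPM in replicates 1 to 3 and 0.838, 2.37 and 0.490 in replicates 4 to 6 (-4.41 ± 0.52). Over the 18 patterning factors 9 were lower and 0 higher (9.15% and 8.31% of all genes), and 5 lower with limma-voom.

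Genes of cortical and hippocampal pyramidal neurons had a positive median log2 difference (1.04), but 0 of 15 were called higher and 0 lower, although 11 had replicates 4 to 6 above all of 1 to 3 (18.1% of all genes). Slc17a7, for the transporter VGLUT1, had 861, 435 and 417 CPM in replicates 1 to 3 and 1255, 1186 and 1091 in replicates 4 to 6 (1.04 ± 0.64). Mef2c, an activity-linked factor, had 288, 67.4 and 160.2 CPM in replicates 1 to 3 and 486, 371 and 431 in replicates 4 to 6 (1.32 ± 0.47). Replicate 1 was the highest of its set for both genes. Of 21 layer genes 4 were called higher (8.31% of all genes), among them Cux2 of upper layers (31.1, 25.2 and 31.5 CPM in replicates 1 to 3 and 63.5, 41.0 and 47.2 in replicates 4 to 6; 0.79 ± 0.20) and Rprm of layer VI (0.96 ± 0.14), and 1 lower. Of inhibitory neuron genes 1 of 16 was higher, a share near the 8.31% of all genes. This was Npy, for neuropeptide Y, with 80.9, 53.1 and 63.0 CPM in replicates 1 to 3 and 187, 122 and 205 in replicates 4 to 6 (1.38 ± 0.25). Gad1 and Slc32a1, which all inhibitory neurons use, had log2 differences of 0.24 ± 0.14 and 0.29 ± 0.23.

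Choroid plexus genes had the lowest median of the 31 lists, with genes at 0 held at their bound. In all 19 of 19 the 3 libraries numbered 4 to 6 lay below the 3 numbered 1 to 3, 12 were called lower and 0 higher (9.15% and 8.31% of all genes, and 19.0% for the lack of overlap), and the median log2 difference was -3.95. Kl, for the hormone co-receptor klotho, had 46.2, 57.2 and 46.3 CPM in replicates 1 to 3 and 4.58, 3.02 and 1.96 in replicates 4 to 6 (-3.95 ± 1.03). Kcne2, a potassium channel subunit gene of the choroid epithelium, had 13.8, 21.5 and 16.6 CPM in replicates 1 to 3 and 0.671, 0.296 and 0.420 in replicates 4 to 6 (-5.21 ± 1.51). Otx2, a factor that choroid plexus development needs, had 11.1, 19.1 and 19.4 CPM in replicates 1 to 3 and 1.12, 3.08 and 0.630 in replicates 4 to 6 (-3.34 ± 0.81). Enpp2, for autotaxin, which oligodendrocytes make too, differed less, at 735, 915 and 858 CPM in replicates 1 to 3 and 211, 173 and 211 in replicates 4 to 6 (-2.07 ± 0.59). Folr1, Aqp1 and Clic6 were not called, with log2 differences of -3.47 ± 1.15, -3.19 ± 1.31 and -1.86 ± 0.85. Left-out libraries took the count of lower members to 2 without replicate 4, 3 without replicate 2 or 6, 5 without replicate 5 and 6 without replicate 3; it was 4 with limma-voom, 6 with no filter on low counts and 19 with the 6 Coll IV libraries fitted alone.

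Ependymal cells line the ventricles. Of their 13 genes 4 were lower and 0 higher (median log2 difference -1.75; 9.15% and 8.31% of all genes), and in all 13 the sets did not overlap (19.0% of all genes). Foxj1, the master factor of motile cilia, had 35.4, 38.4 and 37.8 CPM in replicates 1 to 3 and 10.3, 16.3 and 16.7 in replicates 4 to 6 (-1.37 ± 0.44). Replicate 4 was the lowest library. Of 12 genes of meninges and perivascular fibroblasts 7 were lower and 0 higher, against 9.15% and 8.31% of all genes (median log2 difference -1.31). Igf2, a growth factor gene of meninges and choroid plexus, had 103, 162 and 149 CPM in replicates 1 to 3 and 42.0, 30.0 and 28.8 in replicates 4 to 6 (-2.04 ± 0.49). Dcn, for decorin, had 19.1, 23.3 and 29.6 CPM in replicates 1 to 3 and 10.4, 8.66 and 7.28 in replicates 4 to 6 (-1.45 ± 0.30). Endothelial genes had a median of -0.32, with 1 of 10 above 0 and 1 called lower (9.15% of all genes). Genes of pericytes and smooth muscle had a median of -0.06. The count of lower meningeal genes was 2 without replicate 2 or 6 and 4 without replicate 3, 4 or 5, with limma-voom or with no filter on low counts.

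Myelin genes were lower as well. Of 12 genes of mature oligodendrocytes 10 were lower and 0 higher, against 9.15% and 8.31% of all genes (median log2 difference -0.76), a count of 9 to 11 with any 1 Coll IV library left out. Mbp, for myelin basic protein, had 7674, 9540.2 and 9234 CPM in replicates 1 to 3 and 4625, 4287 and 6529 in replicates 4 to 6 (-0.78 ± 0.17). The sets did not overlap, and replicate 6 was the highest of its set. Of 9 genes of oligodendrocyte precursors 2 were lower and 0 higher (9.15% and 8.31% of all genes). General astrocyte genes went both ways, with 1 higher and 3 lower of 12 (8.31% and 9.15% of all genes). Aldh1l1, a folate enzyme gene, had 51.6, 56.6 and 69.1 CPM in replicates 1 to 3 and 99.4, 82.8 and 83.2 in replicates 4 to 6 (0.58 ± 0.11). Aqp4, the water channel of astrocyte end-feet, had 139, 149 and 139 CPM in replicates 1 to 3 and 74.7, 76.6 and 78.4 in replicates 4 to 6 (-0.89 ± 0.13). Agt, for angiotensinogen, which astrocytes of diencephalon and brainstem make more of than those of the cortex, had 119, 283 and 307 CPM in replicates 1 to 3 and 52.4, 46.5 and 22.9 in replicates 4 to 6 (-2.54 ± 0.50).

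Several genes that respond to injury were lower in replicates 4 to 6, beside the difference in region genes. Of 15 reactive astrocyte genes 7 were lower and 1 higher, against 9.15% and 8.31% of all genes (median log2 difference -0.95), a count of 3 without replicate 2 or 4 and 4 without replicate 6. Gfap, the intermediate filament gene of astrocytes, had 554, 468 and 399.8 CPM in replicates 1 to 3 and 194, 149.8 and 227 in replicates 4 to 6 (-1.32 ± 0.25), Vim, for vimentin, 102, 89.0 and 84.2 CPM in replicates 1 to 3 and 45.6, 44.8 and 52.2 in replicates 4 to 6 (-0.95 ± 0.20) and Serpina3n, a protease inhibitor, 61.2, 39.1 and 36.3 CPM in replicates 1 to 3 and 16.8, 17.8 and 17.8 in replicates 4 to 6 (-1.39 ± 0.36). The sets did not overlap in any of the 3. Socs3, a feedback inhibitor of cytokine signalling, was the member that was higher, at 2.05, 1.33 and 2.55 CPM in replicates 1 to 3 and 4.08, 3.05 and 5.74 in replicates 4 to 6 (1.11 ± 0.27). Of 14 genes of reactive microglia and macrophages 4 were lower and 0 higher (9.15% and 8.31% of all genes). Lgals3, for galectin 3, had 9.69, 4.11 and 3.08 CPM in replicates 1 to 3 and 1.40, 1.33 and 1.96 in replicates 4 to 6 (-1.85 ± 0.45), with replicate 1 highest, and Cd74, the invariant chain of antigen presentation, had 13.3, 15.3 and 23.1 CPM in replicates 1 to 3 and 3.46, 2.55 and 3.29 in replicates 4 to 6 (-2.47 ± 0.38). Of homeostatic microglial genes 2 of 10 were higher and 0 lower (8.31% and 9.15% of all genes). P2ry12, a receptor of surveying microglia, was not called. It had 31.4, 20.8 and 28.8 CPM in replicates 1 to 3 and 34.6, 37.1 and 34.3 in replicates 4 to 6 (0.39 ± 0.19). In saline, Gfap and Serpina3n had log2 differences of -1.47 ± 0.26 and -1.36 ± 0.36 between the same sets. The part of region in the injury genes was not tested.

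Hmox1, the haem oxygenase that degrades haem after bleeding, stood higher instead, with 6.68, 5.17 and 6.76 CPM in replicates 1 to 3 and 14.6, 7.41 and 26.6 in replicates 4 to 6 (1.38 ± 0.33). Replicate 6 was highest and replicate 5 close to replicates 1 to 3. Without replicate 6 the log2 difference was 0.83, without replicate 2 it was 1.29, and neither was called. Of 13 alternative fits, Hmox1 was not called in 3, these included. Hmox2, the constitutive relative of Hmox1, had 44.8, 38.4 and 49.9 CPM in replicates 1 to 3 and 65.8, 55.0 and 61.5 in replicates 4 to 6 (0.45 ± 0.10). Of 13 genes of haem and iron handling 2 were higher and 1 lower (8.31% and 9.15% of all genes). Their median log2 difference was 0.04, with members from -2.59 to 1.38. Erythroid transcripts were lower: the haemoglobin gene Hba-a1, which shares reads with its near-identical copy Hba-a2 and is uncertain for that reason, had 52.2, 106 and 114 CPM in replicates 1 to 3 and 37.6, 36.5 and 42.6 in replicates 4 to 6 (-1.22 ± 0.26). Of 12 measured blood and leukocyte genes of 14, 5 were lower and 0 higher (9.15% and 8.31% of all genes). Of 13 measured chemokine and cytokine genes of 14, 3 were higher and 2 lower (8.31% and 9.15% of all genes). Ccl12, a monocyte chemokine gene, had 1.04, 0.398 and 0.415 CPM in replicates 1 to 3 and 3.05, 0.534 and 7.00 in replicates 4 to 6, with replicate 5 at the level of replicates 1 to 3, and Ccl5, a T cell chemokine gene, had 0.920, 0.862 and 1.01 CPM in replicates 1 to 3 and 0.168, 0.415 and 0.210 in replicates 4 to 6. The 14 interferon response genes had a median log2 difference of 0.00.

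**Figure D4:**
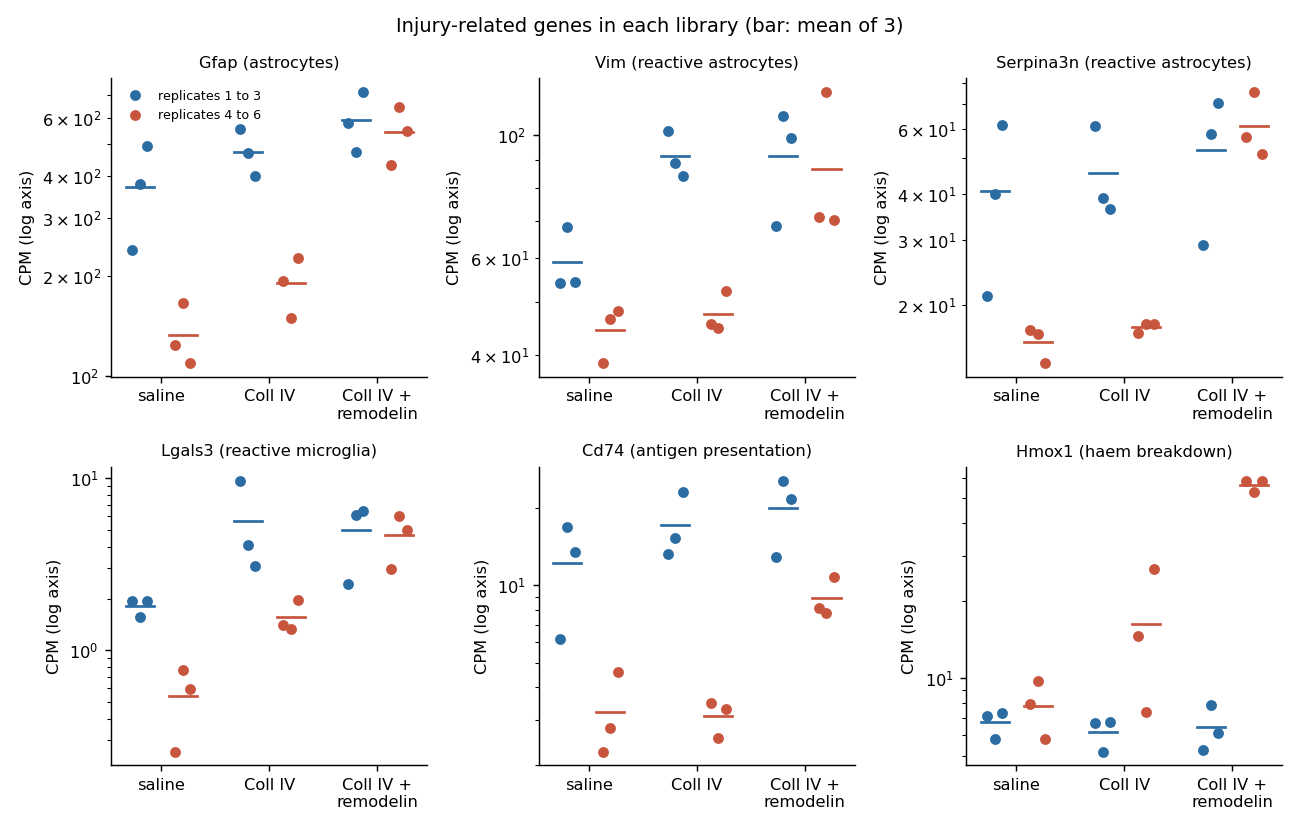
CPM on a log axis of 6 injury-related genes in every library, by group and set; points are libraries and bars the mean of 3. In Coll IV, Gfap, Vim, Serpina3n, Lgals3 and Cd74 were lower in all of replicates 4 to 6, and Hmox1 was higher, with 26.6 CPM in replicate 6.

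Genes outside the lists were taken by the size of their difference. Cd4, which encodes a co-receptor of helper T cells, had 1.66, 0.265 and 0.830 CPM in replicates 1 to 3 and 21.2, 18.4 and 53.6 in replicates 4 to 6 (5.06 ± 1.43). Cd3e, Cd3g and Cd3d, which T cells require, did not pass the filter on low counts and had 27, 11 and 10 counts over the 6 Coll IV libraries. Cd3e had 8, 10, 7, 0, 0 and 2 counts in replicates 1 to 6. Cd3g had 4, 0, 7, 0, 0 and 0, and Cd3d 4, 2, 2, 0, 2 and 0. Most of these few counts thus lay in replicates 1 to 3, unlike those of Cd4. The cell source of Cd4 was not tested. Serpina9, a serine protease inhibitor gene, had 0.675, 0.862 and 0.949 CPM in replicates 1 to 3 and 4.95, 7.15 and 15.5 in replicates 4 to 6 (3.46 ± 0.93), and in Cd4, Serpina9 and Adora2a alike replicate 6 was highest. Atp6ap1l, a relative of a proton pump accessory subunit gene, had 3.37, 1.66 and 1.42 CPM in replicates 1 to 3 and 16.5, 9.78 and 14.8 in replicates 4 to 6 (2.67 ± 0.65). On the lower side, Rbp3, the retinoid-binding protein gene of photoreceptors and pineal gland, had 0.859, 0.995, 13.5, 0.112, 0.119 and 0 CPM in replicates 1 to 6, so that replicate 3 alone was high.

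The same split was then compared with that of the saline group. Within saline, 3494 genes were higher and 3637 lower in replicates 4 to 6 (17.9% and 18.6% of genes). Of the genes higher in Coll IV, 1279 were also higher in saline, 78.9% of the Coll IV calls and 36.6% of the saline calls. Of those lower in Coll IV, 1351 were lower in saline (75.7% and 37.1%), and 2 and 0 genes went opposite ways. These 2 sets of calls share no library, but they come from the same fit. Region genes had been seen to part the libraries of both groups before the split was chosen. The overlap is therefore a description. Without saline replicate 1, the shares of the Coll IV calls were 79.8% and 71.6%. The difference of the differences passed for 0 genes in either direction by edgeR (0% and 0% of genes; smallest adjusted p = 0.150), with 2122 genes at an unadjusted p under 0.05. For this difference DESeq2 called 141 higher and 58 lower and limma-voom 0 and 0.

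The 35 striatal genes had a median log2 difference of 1.86 in Coll IV and 0.17 in saline. In saline 0 were higher and 5 lower by edgeR (17.9% and 18.6% of all genes). The difference between the medians was not tested. Adora2a in saline had 59.0, 1.32 and 1.15 CPM in replicates 1 to 3 and 27.5, 26.0 and 41.1 in replicates 4 to 6. Saline replicate 1 thus exceeded saline replicates 4 to 6, and replicates 2 and 3 were as low as in Coll IV. Without that library the saline median was 1.17, with 19 members higher and 3 lower, and the receptor list went from 0.23 to 2.01. In that fit 3149 of all 20092 genes tested were higher in saline and 3242 lower. For Adora2a the difference from saline was 4.31 ± 1.68, and without saline replicate 1 it was 0.22. Hypothalamic genes had medians of -6.45 in saline (-6.10 with 1 gene at its bound) and -1.28 in Coll IV. In saline 16 of these 18 genes were lower (18.6% of all genes). For Oxt the difference was 7.97 ± 2.71 (edgeR adjusted p = 0.326). Pyramidal neuron genes were higher in 10 of 15 cases in saline (17.9% of all genes), with a median of 2.11, against 1.04 in Coll IV. Slc17a7 had a difference of -1.69 ± 0.90 (edgeR adjusted p = 0.512). Thalamic genes had medians of -2.33 in saline and -1.25 in Coll IV. The genes of lowest p were Hgf, a growth factor gene, and Hkdc1, a hexokinase relative, which were higher in replicates 4 to 6 of both groups, by log2 2.98 ± 0.23 and 4.09 ± 0.37 in saline and 1.25 ± 0.21 and 1.37 ± 0.33 in Coll IV (adjusted p = 0.150 and 0.150 for the differences).

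**Figure D5:**
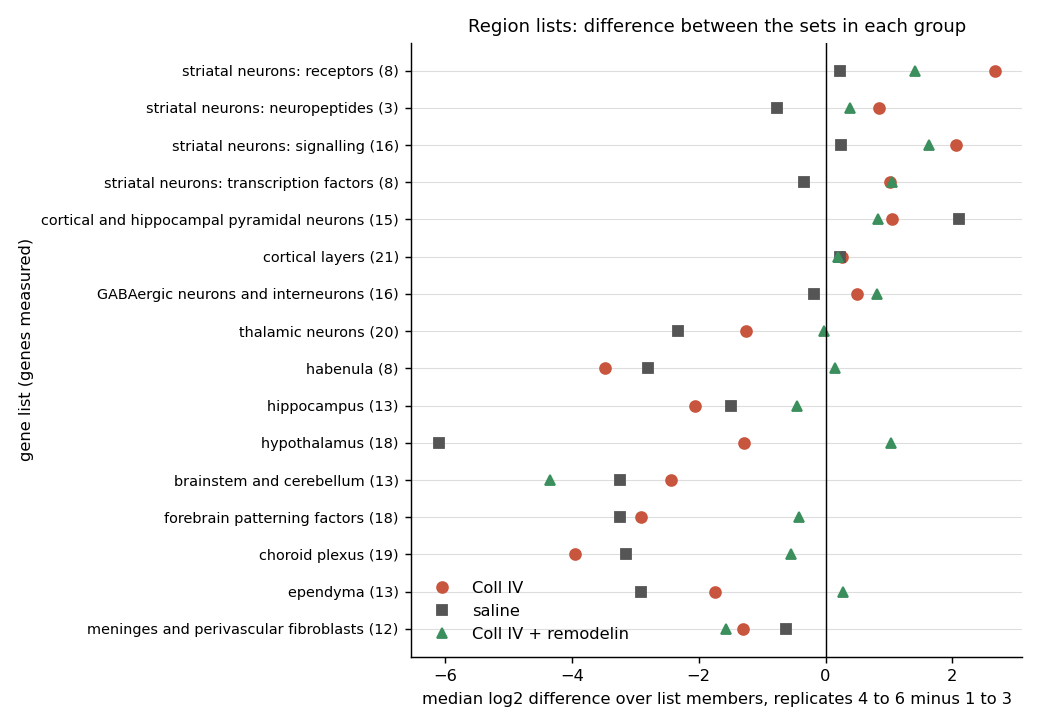
Median log2 difference between replicates 4 to 6 and 1 to 3 over the genes of each region list, in the 3 groups, with genes at 0 in all 3 libraries of a set held at their bound. Brainstem genes lie at -3.25 in saline, -2.44 in Coll IV and -4.35 with remodelin. Coll IV stands to the right for striatal receptors (2.67), and Coll IV with remodelin lies near 0 for thalamus (-0.02) and habenula (0.15).

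In the group given Coll IV and remodelin, 1399 genes were higher and 1286 lower in replicates 4 to 6 (7.17% and 6.59% of genes). Of the genes higher in Coll IV, 427 were also higher there (26.3% of the Coll IV calls and 30.5% of the others), and of those lower, 421 (23.6% and 32.7%). The difference between the groups passed for 14 genes with a positive and 51 with a negative value by edgeR (0.0717% and 0.261% of genes). A negative value means that the log2 difference, replicates 4 to 6 minus 1 to 3, was lower in Coll IV than with remodelin. With 1 library left out the counts were 0 to 136 and 2 to 457. They were lowest without Coll IV replicate 2 or 4 (0 and 2 in each case) and highest without intervene replicate 2 (110 and 457) or Coll IV replicate 1 (136 and 192).

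Thalamic genes were among those called, and their p-values carry the limit given for region genes. Tcf7l2 in the remodelin group had 96.2, 91.4 and 60.6 CPM in replicates 1 to 3 and 48.6, 32.8 and 36.7 in replicates 4 to 6, and the difference of the log2 differences was -2.46 ± 0.47, given without a test since the rule names this gene. Ntng1 had 36.5, 41.2 and 37.6 CPM in replicates 1 to 3 and 33.1, 30.3 and 29.8 in replicates 4 to 6 there, a difference of -1.62 ± 0.19 (edgeR adjusted p = 0.00186), and Shox2 had 21.6, 17.8 and 13.5 CPM in replicates 1 to 3 and 19.4, 11.5 and 15.8 in replicates 4 to 6, a difference of -5.53 ± 0.60 (adjusted p = 0.00186). For these 3 genes the remodelin libraries 4 to 6 were above all Coll IV libraries 4 to 6. Ntng1 stayed past the threshold in 20 of 20 alternative fits and Shox2 in 19. Over the thalamic list 3 of 20 fell under the threshold in this direction and 0 in the other. The 3 include Tcf7l2, whose call is a description since the rule names this gene. Over the habenula list 2 of 8 and 0 passed. The shares of all genes were 0.261% and 0.0717%. In the habenula list, Pou4f1 differed by -6.12 ± 1.17 (edgeR adjusted p = 0.0465) and Chrna3 by -4.31 ± 0.75 (adjusted p = 0.0353). Irx1 and Lhx9, patterning factors of the thalamus, differed by -3.25 ± 0.51 and -3.70 ± 0.66 (adjusted p = 0.0274 and 0.0388). Of the 20 alternative fits, Irx1 passed in 14, Chrna3 in 9, Lhx9 in 8 and Pou4f1 in 7. The striatal genes had medians of 1.86 in Coll IV and 1.16 with remodelin, and Adora2a differed by 2.13 ± 1.67.

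Genes that are not region markers passed as well. Tlr2, a receptor for bacterial and damage-derived ligands on microglia, had 2.33, 2.59 and 2.02 CPM in replicates 1 to 3 and 0.950, 1.36 and 1.40 in replicates 4 to 6 in Coll IV and 2.42, 2.20 and 2.48 CPM in replicates 1 to 3 and 7.23, 4.83 and 6.77 in replicates 4 to 6 with remodelin, a difference of -2.31 ± 0.35 (adjusted p = 0.0249). Replicates 4 to 6 were the lower set in Coll IV and the higher set with remodelin. Tlr2 passed in 17 of the 20 alternative fits, and the 4 genes that follow in 12 (Esam), 11 (Msn), 9 (Ltk) and 8 (Lars2). Msn, for moesin, which links membrane to actin, differed by -0.85 ± 0.14 (adjusted p = 0.0274). On the positive side, Esam, an endothelial adhesion molecule, had 10.1, 11.5 and 10.3 CPM in replicates 1 to 3 and 12.4, 11.7 and 13.0 in replicates 4 to 6 in Coll IV and 13.0, 11.6 and 13.6 CPM in replicates 1 to 3 and 7.09, 6.28 and 7.69 in replicates 4 to 6 with remodelin, a difference of 1.08 ± 0.19 (adjusted p = 0.0287), and Ltk, a receptor tyrosine kinase gene, differed by 1.31 ± 0.24 (adjusted p = 0.0299). Lars2, the mitochondrial leucyl-tRNA synthetase gene, to which ribosomal RNA reads can align, differed by 2.29 ± 0.41 (adjusted p = 0.0388) and is uncertain. Ttr, a marker of the rule, differed by -5.64 ± 2.29, given without a test, and the remodelin libraries had 564, 10063, 64.1, 101, 3949 and 3407 CPM in replicates 1 to 6, a spread within both sets. Chemokine and cytokine genes had a median log2 difference of 0.37 in Coll IV and 3.57 with remodelin. With remodelin 10 of 13 were higher (7.17% of all genes). The difference between these medians was not tested.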

How the data were processed

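Bulk polyA RNA of 18 thalamus-labelled mouse libraries (3 groups of 6) had been sequenced. Per the submitters' processing notes, HISAT2, featureCounts and GRCm39 were used; their versions, settings and annotation were not given in the sources read. The deposited raw counts cover 50559 gene symbols, and the deposited FPKM values equal count per gene length and per library total for 18117 of 18117 genes with counts in every library (relative tolerance 1e-06). Of non-zero counts up to 40, 80.9% were even, as when both mates of a read pair are counted, so counts are not independent fragments. The 18 libraries held 28481225 to 118461420 counts.

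Genes were filtered with filterByExpr (19513 kept) and tested with edgeR 4.0.16 (R 4.3.3; TMM, robust quasi-likelihood F test, 6 cell means of group by replicate numbers 1 to 3 and 4 to 6, 12 residual degrees of freedom, Benjamini-Hochberg over all genes, threshold 0.05). CPM values use the TMM-scaled totals, log2 levels a prior count of 2; standard errors are the log2 difference over the square root of F. A gene at 0 in a whole set was held at the bound that 3 counts over the set allow. Alternatives were library totals, DESeq2 size factors, no filter, DESeq2 1.42.0, limma-voom 3.58.1, the compared libraries alone, a replicate block, and each library left out; counts divided by 2 and rounded up were added after seeing the data. The steps were tested on simulated data.

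The split, the 31 lists (404 genes) and the tests were chosen with earlier results of these data known. Genes were named by rule: the 3 markers, all striatal, thalamic and choroid plexus list members, up to 6 members of other lists by lowest p, and outside the lists the 10 largest called differences each way and the 6 lowest p each way in both difference tests, at 5 CPM or more. Gal, Mbp, Oxt, Slc17a7, Slc32a1, Tph2, Trh and the Cd3 genes fall outside this rule and were named after their values were seen. Results of some genes are not reported here.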

Additional observations from a re-analysis of the deposited data

Results flagged for a closer look

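In 13 of 142 genes, lists and library measures checked, 1 of the 6 Coll IV libraries lay apart. Its gap to its neighbour exceeded the share of the whole range that Dixon's test sets for 6 samples. Chance gives this in about 1 in 20 where the 6 values come from a single normal distribution. Here the 6 values join 2 sets that differ for many of these genes, so 13 of 142 cannot be set against that rate. Replicate 6 was the high library for Drd2 (0.672 of the range), Ido1 (0.645) and Pde10a (0.691), genes of striatal neurons. Replicate 3 was high for Slc6a3 (0.994), Slc6a4 (0.930), Tph2 (0.937), Rbp3 (0.926) and Pmch (0.631), and for the mean log2 CPM of the brainstem and cerebellum list (0.661). Replicate 1 was high for Lgals3 (0.668) and Ramp3 (0.725). Replicate 2 was low for the cortical layer list (0.638), and replicate 5 was low for the interferon response list (0.733).

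Of the genes named above, 12 passed edgeR's threshold for the difference of the differences between Coll IV and Coll IV with remodelin. Some genes were named for their low p in this test, so the count of 12 supports nothing. The region genes among the 12 carry the limit given for region genes above. Tcf7l2, also among the 12, is a marker named by the rule, so its value is a description. The values were -1.62 for Ntng1, -5.53 for Shox2, -2.46 for Tcf7l2, -3.25 for Irx1, -3.70 for Lhx9, -6.12 for Pou4f1, -4.31 for Chrna3, -2.31 for Tlr2 and -0.85 for Msn. They were 1.08 for Esam, 1.31 for Ltk and 2.29 for Lars2, all on the log2 scale.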

How the results depend on the processing

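Counts of genes higher and lower in Coll IV replicates 4 to 6 were reported as 1622 and 1785. They stayed within 1.5 times of these values in the 7 alternatives that kept all Coll IV libraries. With 1 Coll IV library left out they ran from 550 to 1906 higher and 659 to 1858 lower. The difference from saline, called for 0 and 0 genes, was called for 141 and 58 by DESeq2, 5 and 0 with no filter, 7 and 3 with the 12 libraries fitted alone, and 0 to 4 higher and 0 to 9 lower with 1 library left out. The difference from remodelin, called for 14 and 51, was called for 267 and 407 by DESeq2, 3 and 11 with library totals, 21 and 99 with no filter, 0 and 8 with the 12 libraries alone, and 0 to 136 higher and 2 to 457 lower with 1 library left out. The cause of these changes was not tested. Replicate numbers are shared by the groups, and whether they pair the libraries was not tested. Deviations from the set means of same-numbered Coll IV and saline libraries correlated at -0.15 to 0.23. The correlations were -0.16 to 0.11 for Coll IV and remodelin. Within their set, 4 of 6 Coll IV libraries were closest to the saline library of their own number, and 1 of 6 to such a remodelin library. From the group means, which keep the difference between the sets, deviations correlated at 0.18 to 0.59 and -0.11 to 0.33. There, 3 of 6 libraries were closest to the one of their own number in either comparison. With the replicate block on the 12 libraries alone, 0 and 1 genes were called for saline and 0 and 5 for remodelin.

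Direction changed with 1 library left out for 3 genes whose sets overlap: the log2 difference ranged over -0.16 to 0.41 for Isl1, -0.11 to 0.56 for Oprm1 and -0.19 to 0.16 for Six3. Where a set holds a gene at a few counts or at 0, its CPM rests on those counts.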
